A study of Mus musculus with 24 samples.

Results

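Transcript levels were compared between livers of Rap1 knockin (KI) and wild-type (WT) female mice. These are 6 of the 24 arrays of the study, which also covered brain, heart and skeletal muscle of the same 6 mice. The 3 KI mice, called A, B and C, carried the Rap1 I312R allele, made by CRISPR/Cas9 editing in the germline and therefore present in every cell. The labels give these mice as MUT, and the paper describes the knockin mice of its arrays as homozygous. The 3 WT mice, called D, E and F, carried no edited allele. The KI line had been backcrossed to C57BL/6N, which the labels give as C57BL6. Mice A, B, D and E were 15 months of age, and the younger pair of C and F was 14 months of age. Each array held RNA from the liver of a separate mouse, with no pooling and no treatment stated. Of 21368 genes with a named probe, 14092 were tested, those detected well above background in all 3 mice of KI or of WT.

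RAP1, encoded by Terf2ip, belongs to shelterin, the complex that protects chromosome ends. It is held there by TRF2, and it also acts away from telomeres, on promoters and on the NF-kappaB kinase in the cytosol. The I312R change was made to break the contact with TRF2. Liver is built mainly of hepatocytes, which make plasma proteins, bile acids, urea and glucose and clear foreign compounds. Kupffer cells (the resident macrophages), retinoid-storing stellate cells, sinusoidal endothelium and bile duct cells make up most of the rest.

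The guide RNA target and the donor oligonucleotide that define the allele are shown because every comparison rests on them. Capitals mark the codon of residue I312 in the guide target and the arginine codon that replaces it in the donor.
Guide target: gaactgccattaaggtgATC
Donor: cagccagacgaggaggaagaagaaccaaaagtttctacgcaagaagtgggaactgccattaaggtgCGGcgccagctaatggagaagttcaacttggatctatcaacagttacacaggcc
The first 17 of the 20 guide bases occur unchanged in the donor of 120 bases. The last 3 carry the substitutions A18C, T19G and C20G, counted from 1 at the 5′ end of the guide, which turn ATC into CGG. A silent change beside the codon, also named in the methods, lies outside the guide.

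A level of 0 on the log2 scale used here is the 75th percentile of all probes of that array, so that most probes lie below 0, and a difference of 1 is 2-fold. The liver arrays correlated with each other across genes by 0.978 to 0.99, and 49.4% to 62.1% of their probes rose clearly over background. The hepatocyte genes Alb, Apoa1 and Fabp1 stood among the brightest on every array, with levels from 7.46 to 10.43, as liver tissue should have. Array C also carried skeletal muscle transcripts, described at the end, and results are given with and without it. All liver arrays lay on the same slide, and the age of the mice coincided with the row of the slide, so age and row cannot be told apart.

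No single gene passed the threshold in liver. With limma, 0 of 14092 genes (0%) had a Benjamini-Hochberg adjusted p under 0.05, and the smallest was 0.358. An unadjusted p under 0.05 was reached by 1653 genes (11.7%), of which 1093 (7.76%) were higher and 560 (3.97%) lower in KI livers. Over all probes, named or not, the split was 1405 against 1120. The 3 KI livers lay above all 3 WT livers in 1799 genes (12.8%) and below all 3 in 991 (7.03%), and the median difference over all tested genes was 0.05. Together 2790 genes (19.8%) did not overlap between the genotypes. Without array C, 0 genes passed, 861 (6.11%) were higher and 488 (3.46%) lower at an unadjusted p under 0.05, and 966 of the 1653 genes stayed under that value with the same sign. The number of higher genes was also smaller without KI array A (671, with 330 lower) and without WT array F (665, with 425 lower). A joint fit of the 24 arrays called 3 genes, with or without the mouse as a block, namely Tmem255a (1.52), higher in KI, Gm35287 (-1.20), lower in KI, and Pla2g4f, which cleared background in no WT liver and for which only the bound given below can be read. These shares are the background for the gene lists that follow, whose members are counted at an unadjusted p under 0.05. Since no gene passed, the genes below are described as higher or lower, with their values.

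**Figure D1:**
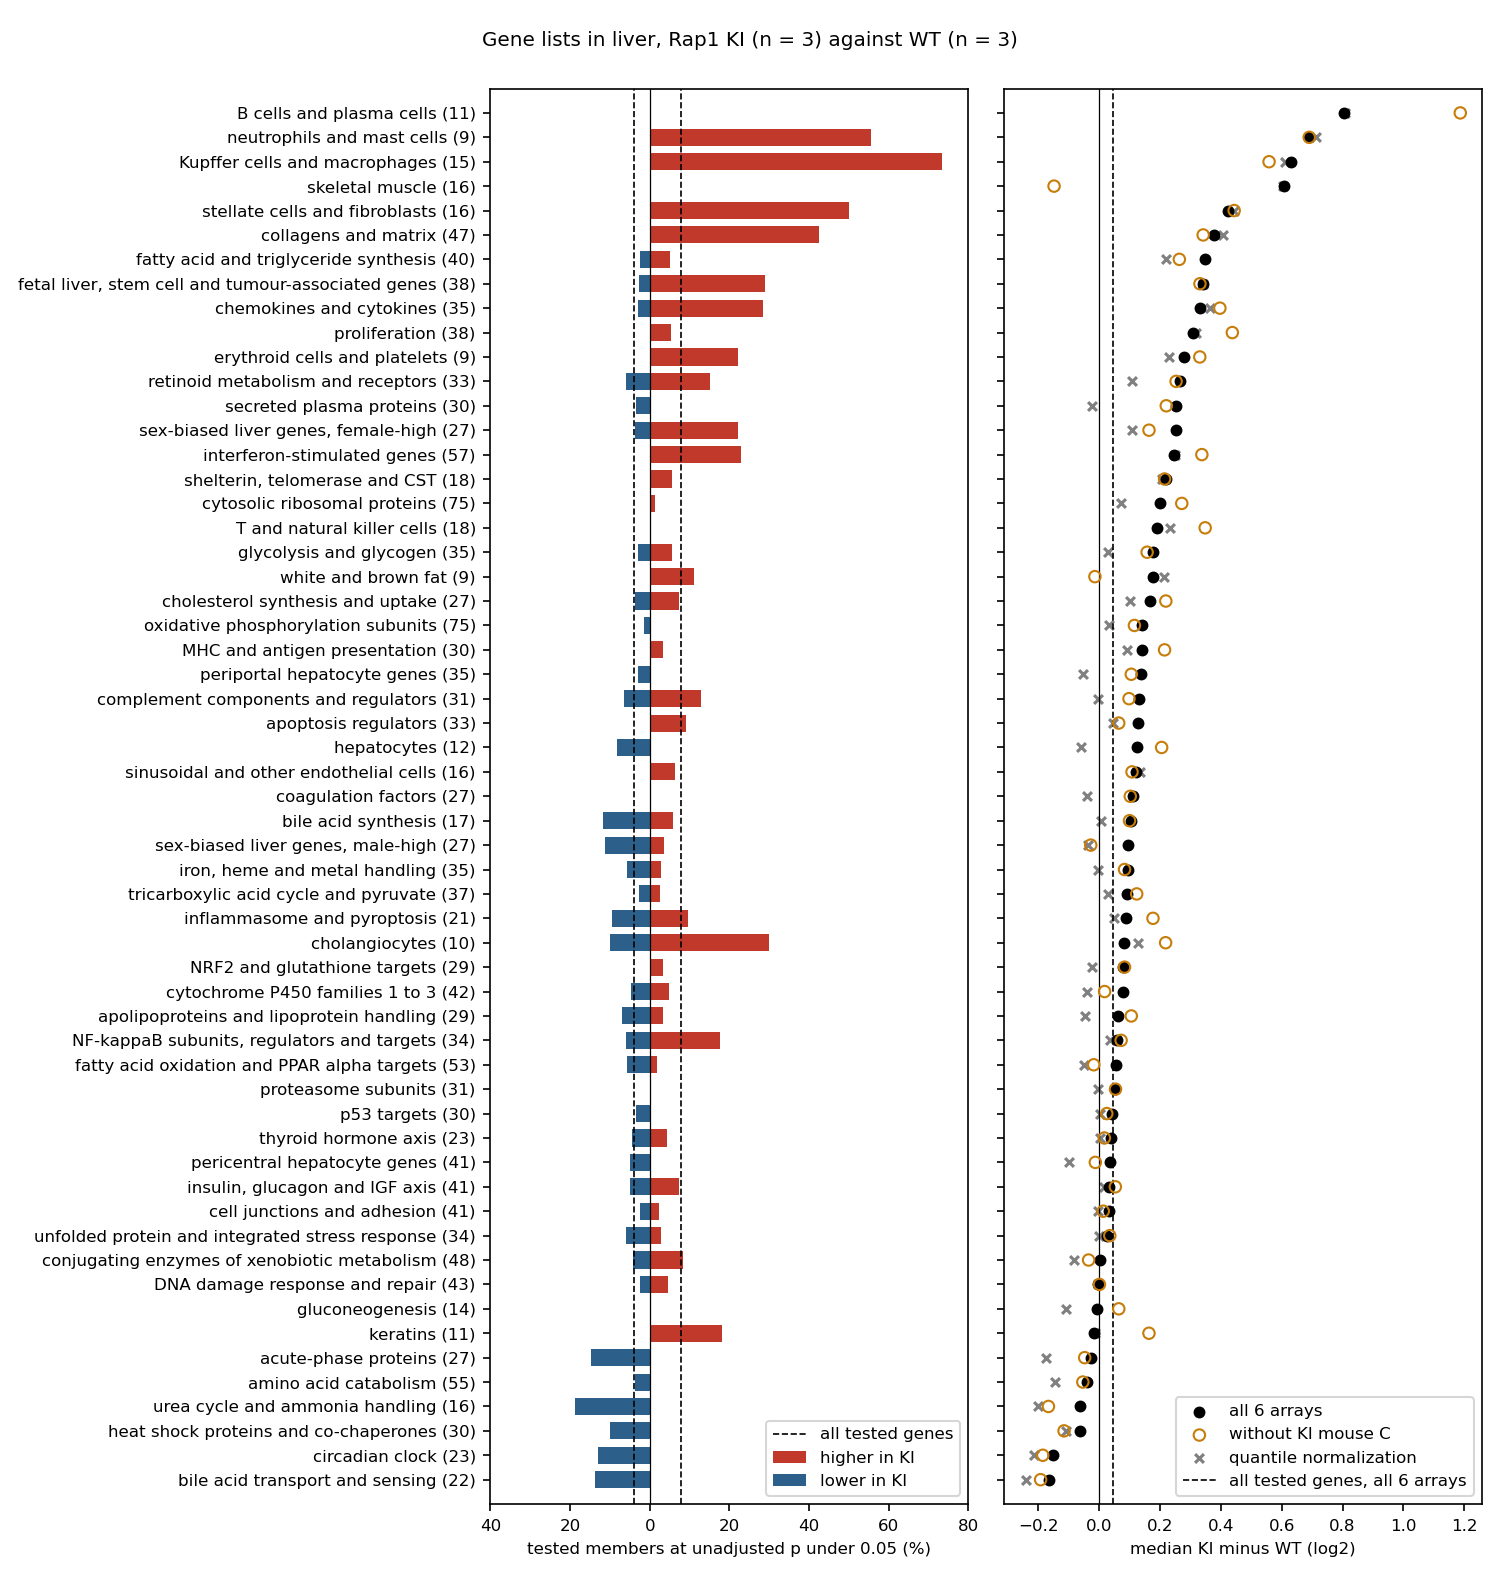
Left, the percentage of tested members of each gene list at an unadjusted p under 0.05, higher in KI to the right and lower to the left, with dashed lines at the shares of all tested genes. Right, the median KI minus WT difference (log2) of the same members with all 6 arrays, without array C and with quantile normalization, the dashed line marking all tested genes. Numbers in parentheses are tested members. The macrophage list has the largest share higher in KI, 73.3%, and the skeletal muscle median moves from 0.61 to -0.15 without array C.

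Terf2ip itself was detected in all 6 livers. Its levels were 0.42, 0.94 and 0.33 in KI livers A, B and C and 1.18, 0.71 and 0.78 in WT livers D, E and F. KI liver B lay within the WT range. The difference of -0.33 (SE 0.21; limma adjusted p = 0.523) did not pass the threshold, and a second, dimmer Terf2ip probe gave 0.08. Among the other shelterin genes, Terf2, which encodes TRF2, differed by 0.23, Tinf2 by -0.25, Acd by 0.16, Terf1 by -0.15 and Pot1a by 0.22. Terf2 and Acd were higher and Tinf2 was lower in KI without overlap, Terf2 only with its brightest probe (-0.02 with the mean of its 3 probes). The smallest limma adjusted p among the 18 tested genes of the telomere list was 0.376. Its median was 0.22, 1 member was higher at an unadjusted p under 0.05, and 7 were higher and 1 lower without overlap. The 1 member was Stn1, a subunit of the complex that fills in the telomeric C strand, with levels of 0.84, 0.68 and 0.63 in KI and 0.13, 0.42 and 0.06 in WT livers. With the mean of both Stn1 probes, its difference went from 0.51 to 0.03.

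Genes of Kupffer cells and other macrophages were higher in KI livers. Of 15 tested members, 11 (73.3%) were higher and 0 lower at an unadjusted p under 0.05, and 11 did not overlap between genotypes. All 15 differences were above 0. Their median was 0.63 and ranged from 0.56 to 0.72 when each array was left out in turn, with 9 to 14 members higher. It was 0.51 in the 15-month mice A, B, D and E. In the 14-month pair C and F, a single mouse of each genotype, it was 0.87. The summed linear level of the list lay between 193 and 213 in KI livers and between 116 and 150 in WT livers. Less RNA per cell and fewer cells of a type cannot be told apart in whole tissue, here and in every cell list below.

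Csf1r, the receptor through which macrophages receive their survival signal, had levels of 5.19, 4.92 and 5.11 in KI livers and 4.42, 4.41 and 4.30 in WT livers. The lowest KI liver was thus well above the highest WT liver, and the mean difference of 0.70 (SE 0.12; limma adjusted p = 0.358) corresponds to 1.62-fold. Aif1, a calcium-binding protein of macrophages, gave 3.57, 3.06 and 3.20 against 2.43, 2.45 and 2.21, again without overlap and with a difference of 0.91 (SE 0.17; limma adjusted p = 0.358). Cd5l, a protein that tissue macrophages secrete, gave 5.96, 5.70 and 5.82 against 5.24, 5.15 and 4.76, a difference of 0.78. The KI livers were also higher without overlap for genes held to mark Kupffer cells rather than macrophages in general. Vsig4, a complement receptor, had levels of 4.25, 4.05 and 4.27 against 3.71, 3.50 and 3.46. Clec4f, a lectin found on Kupffer cells, had 4.51, 4.31 and 4.36 against 4.16, 3.89 and 3.66, a smaller difference of 0.49 (SE 0.16; limma adjusted p = 0.397). The macrophage adhesion receptor Adgre1 differed by 0.61, the lysosomal Cd68 by 0.55, the lysozyme Lyz2 by 0.72, and the complement starters C1qa and C1qb by 0.69 and 0.57.

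The scavenger receptor Marco had the largest difference of the list, 1.10, but its genotypes overlapped. KI liver A, at 2.22, lay below WT liver D, at 2.38, whereas KI livers B and C had 3.69 and 3.51 and WT livers E and F had 1.70 and 2.05. Timd4, a receptor for dying cells that marks long-lived resident macrophages, was dim and overlapped as well, with levels of -1.23, -0.77 and -0.25 in KI and -1.04, -1.98 and -1.39 in WT livers. The lysosomal protease Ctss, which trims the invariant chain of MHC class II, was higher in all KI livers, with 4.40, 4.03 and 4.06 against 3.51, 3.37 and 3.06. It was the 1 member of 30 in the antigen presentation list at an unadjusted p under 0.05, and the median of that list was 0.14. Without KI array C 4 and without WT array D 5 of the list were higher.

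**Figure D2:**
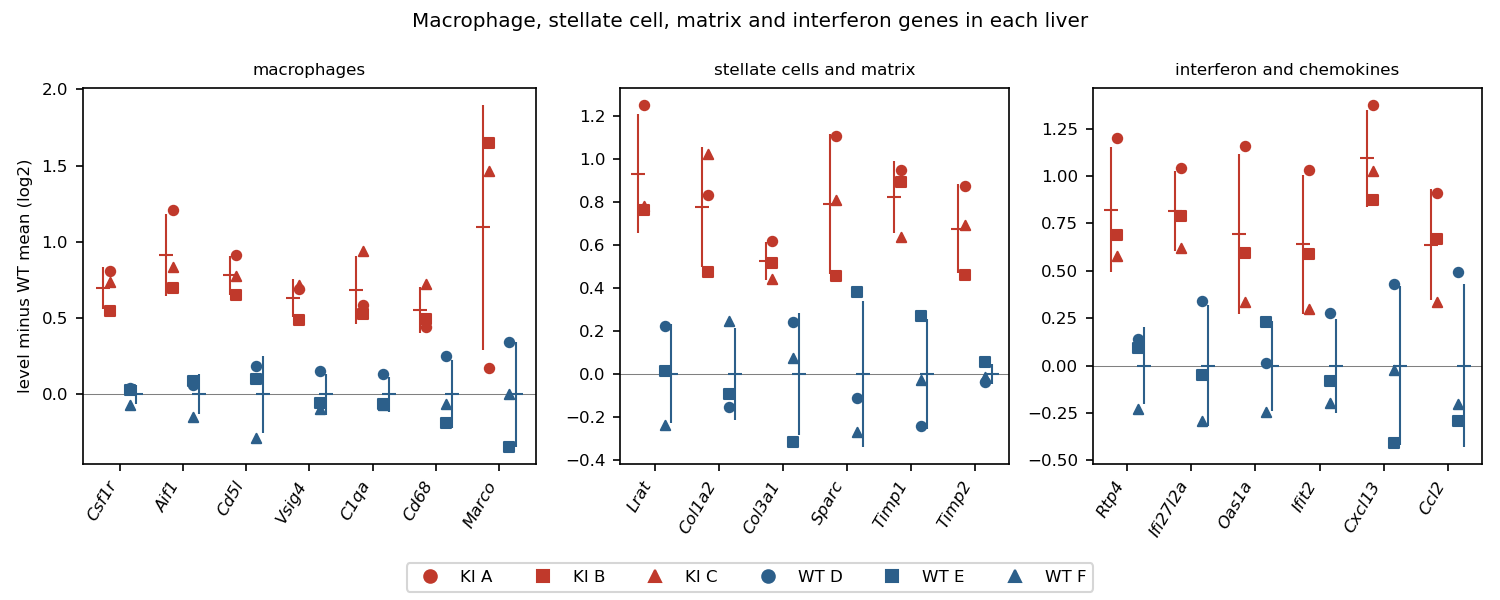
Level in each liver minus the mean of the 3 WT livers (log2) for macrophage genes, stellate cell and matrix genes, and interferon and chemokine genes. Red symbols are KI and blue symbols WT mice, and the bars give the mean and SD of each genotype (n = 3). The vertical scales of the panels differ. Csf1r, Aif1, Cd5l, Lrat, Timp2 and Rtp4 do not overlap between genotypes, whereas KI liver A lies within the WT range for Marco.

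Genes of stellate cells and fibroblasts were higher in the same livers. Of 16 tested members, 8 (50%) were higher and 0 lower at an unadjusted p under 0.05, and the median was 0.42 (0.44 without array C). Without KI array A or C the count was 4 or 5, and with the other arrays left out it was 6 to 9. The summed level was 167 to 202 in KI and 115 to 148 in WT livers. Lrat, which esterifies retinol for storage and marks quiescent stellate cells, had levels of 1.81, 1.32 and 1.34 in KI and 0.78, 0.57 and 0.32 in WT livers. The KI livers were all above the WT livers, by 0.93 on average (SE 0.19; limma adjusted p = 0.358). Rgs5, a pericyte regulator of G protein signals, differed by 0.69, the small proteoglycans Dcn and Lum by 0.57 and 0.55, and the lectin Colec11 by 0.41, all without overlap. Dcn and Colec11 were chosen after their values were seen. Reln, a secreted glycoprotein of stellate cells, was dim and was the 1 member lower in all KI livers, at -2.81, -3.03 and -2.95 against -1.94, -2.64 and -2.74.

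The fibrillar collagens belong to this pattern. Col1a2 had levels of 2.82, 2.46 and 3.01 in KI and 1.84, 1.90 and 2.24 in WT livers, with no overlap and a difference of 0.78 (SE 0.19; limma adjusted p = 0.364). Its partner chain Col1a1 also differed by 0.78, but KI liver B (0.67) lay below WT liver F (0.72). Col3a1 gave 2.52, 2.42 and 2.35 against 2.15, 1.59 and 1.98. Over the list of collagens and matrix proteins, 20 of 47 tested members (42.6%) were higher and 0 lower at an unadjusted p under 0.05. Its median was 0.38, and without array C the counts were 15 and 2, the former being the lowest with any array left out. The list shares 5 tested members with the stellate list, and of the other 42, 15 were higher.

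Other matrix genes, among them the further collagen chain Col5a1, moved beside them. The metalloproteinase inhibitors Timp1, Timp2 and Timp3 differed by 0.83, 0.68 and 0.71. Timp2, the brightest of the 3, had 3.90, 3.48 and 3.72 in KI and 2.99, 3.08 and 3.01 in WT livers. The collagen-binding Sparc gave 6.55, 5.90 and 6.26 against 5.33, 5.83 and 5.17, and its difference of 0.79 became 0.37 with the mean of its 3 probes. The laminin chain Lamb1 (0.50), the elastic fibre protein Fbln5 (0.67), the collagen cross-linker Loxl2 (0.76), Col5a1 (0.52) and the proteoglycan Bgn (0.47) were all higher without overlap. These genes and Sparc were chosen after their values were seen. Thbs1 (0.80), chosen in the same way, overlapped between the genotypes. Over the whole list of collagens and matrix proteins, 39 of 47 differences were above 0. With the mean of their probes, Fbln5 and Loxl2 differed by 0.25 and 0.43. Vim, an intermediate filament protein of mesenchymal and blood cells, had 3.14, 2.83 and 2.87 against 2.37, 2.39 and 2.34. The part of macrophage and stellate cell abundance in these differences was not tested.

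**Figure D3:**
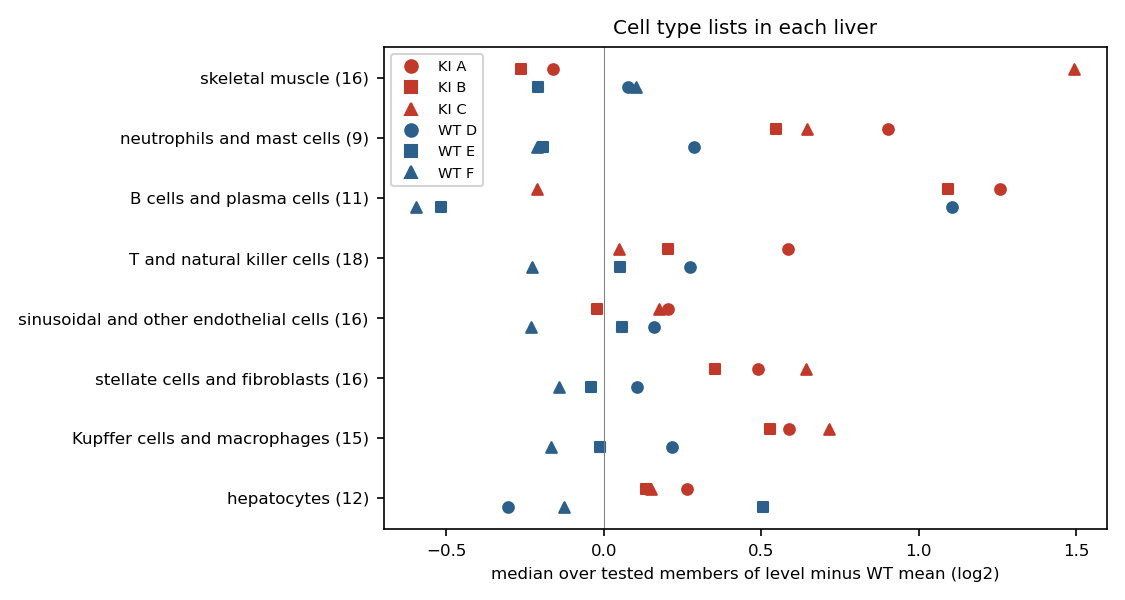
Median over the tested members of each cell type list of the level minus the WT mean (log2), 1 symbol per mouse, KI in red and WT in blue. All 3 KI livers lie above all 3 WT livers for macrophages (0.53 to 0.71 against -0.17 to 0.22) and for stellate cells and fibroblasts (0.35 to 0.64 against -0.14 to 0.11). Hepatocyte genes overlap, B cell genes are high in livers A, B and D, and muscle genes are high in liver C.

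Other blood and liver cell lists behaved differently. Neutrophil genes were higher in KI livers for 5 of 9 tested members (55.6%) at an unadjusted p under 0.05, with a median of 0.69 (0.38 with another background correction, normexp). Without WT array E or F the count was 2. On WT array E, 7 of the 14 measured members cleared background, so some tested members entered only through KI livers. Without overlap, 4 members were higher and 1 was lower. The summed level overlapped, with 184, 81.7 and 97.3 in KI livers and 65.7, 110 and 158 in WT livers. S100a8, a calcium-binding protein of neutrophils, had 0.70, 0.35 and 0.45 against 0.08, -0.20 and -0.47. S100a9 overlapped between the genotypes, with 3.02, 2.55 and 1.75 against 2.52, 1.83 and 1.79. The granule proteins Ltf and Mpo differed by 1.55 and 1.38 at low levels, Ltf most of all in KI liver A, at -0.50 against -2.38 and -2.72 in B and C and -2.98 to -3.66 in WT livers. The platelet chemokine Pf4 gave 1.06, 0.80 and 0.75 against 0.25, 0.24 and 0.25, a difference of 0.63 (SE 0.13; limma adjusted p = 0.358).

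B cell genes did not follow the genotype. The B cell receptor chain Cd79b had levels of 2.08, 1.89 and 0.84 in KI livers A, B and C and 1.89, 0.45 and 0.06 in WT livers D, E and F, so that liver D was with A and B and liver C with E and F. Ms4a1 (CD20) showed the same split, with 0.18, -0.20 and -1.75 against -0.36, -2.06 and -2.21. The list had a median of 0.80 but 0 of 11 tested members at an unadjusted p under 0.05, and 3 without KI array C and 5 without WT array D. The T and natural killer cell list also had 0 of 18, with a median of 0.19, and 4 higher without array C. Of the endothelial list 1 of 16 was higher (0 without A, B or F), Lyve1, a hyaluronan receptor of sinusoidal and lymphatic endothelium, with 0.26, -0.07 and -0.57 against -0.75, -0.71 and -1.59. The sinusoidal scavenger receptors Stab1 and Stab2 differed by 0.01 and 0.02, and by -0.02 each with quantile normalization, and Pecam1 differed by -0.06. In the bile duct list, Tspan8, Epcam and Krt19 were higher (0.60, 0.55 and 0.32) and the chloride channel Cftr lower (-0.69), with a median of 0.08 over 10 genes, and 0 were higher without KI array B or WT array E.

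Interferon-stimulated genes, which cells switch on against viruses and other sources of foreign nucleic acid, were higher in KI livers for 13 of 57 tested members (22.8%) at an unadjusted p under 0.05, and 0 were lower. The median was 0.25, with 49 of 57 differences above 0. By mouse, the median level minus the WT mean was 0.37, 0.28 and 0.04 in KI livers A, B and C. It was 0.17, 0.00 and -0.19 in WT livers D, E and F, so KI liver C lay below WT liver D. The count of higher members depended on single livers, being 15 without array C but 4 without KI array A, 7 without KI array B and 5 without WT array F, while the median stayed between 0.13 and 0.34. Rtp4 led the list, with 4.32, 3.81 and 3.70 in KI and 3.26, 3.21 and 2.89 in WT livers. This was a difference of 0.82 (SE 0.20; limma adjusted p = 0.364) without overlap. Ifi27l2a, a mitochondrial membrane protein, gave 4.38, 4.13 and 3.96 against 3.68, 3.29 and 3.05. The oligoadenylate synthetase Oas1a, which activates RNase L when it meets double-stranded RNA, had 2.91, 2.35 and 2.08 against 1.76, 1.98 and 1.50. KI liver A had the highest value of all 3 genes. Oas2 and Oas3 differed by 0.48 and 0.64, the guanylate-binding proteins Gbp3 and Gbp5 by 0.41 and 0.63, Ifit2 by 0.64, the ubiquitin ligase Trim25 by 0.41 and Irf9, the DNA-binding subunit of the type I interferon factor, by 0.37. Isg15 differed by 0.40, and its genotypes overlapped. Macrophage genes were also higher in KI livers, with a median level minus the WT mean of 0.59, 0.53 and 0.71 in A, B and C. Their part in the interferon difference was not tested.

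The promoters of Oas1a and Gbp3 are printed because both genes were higher in KI and both carry the interferon response motif. They are the 300 bases from 250 before to 50 after the gene start, for Gbp3 the one of its 2 listed starts that carries the motif, from RefSeq, GRCm38.p6, at chr5:120907476-120907775 (minus strand) for Oas1a and chr3:142559794-142560093 (plus strand) for Gbp3. Capitals mark matches to the 10 letters GAAA, any 2 bases and GAAA, or their reverse complement.
Oas1a: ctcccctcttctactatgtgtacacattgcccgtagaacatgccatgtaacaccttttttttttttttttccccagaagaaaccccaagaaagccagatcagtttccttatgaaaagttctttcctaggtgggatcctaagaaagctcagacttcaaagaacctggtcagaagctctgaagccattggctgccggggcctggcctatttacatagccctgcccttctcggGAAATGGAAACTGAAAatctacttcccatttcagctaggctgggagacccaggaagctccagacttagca
Gbp3: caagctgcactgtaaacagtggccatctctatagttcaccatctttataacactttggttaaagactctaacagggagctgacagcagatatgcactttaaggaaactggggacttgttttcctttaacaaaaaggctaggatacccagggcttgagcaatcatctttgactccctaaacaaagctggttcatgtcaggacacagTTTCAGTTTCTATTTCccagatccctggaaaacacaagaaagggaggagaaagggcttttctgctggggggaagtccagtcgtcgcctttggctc
Each holds 2 overlapping matches. Of the interferon genes tested, 44 had a promoter in the table and 24 of these (54.5%) held the motif on either strand, as did 6 of the 9 (66.7%) that were higher in KI. It occurred in 3.99% of all 27025 genes with a promoter, in 5.34% of the genes higher in KI and in 4.19% of those lower. The telomere repeat TTAGGG, which the DNA-binding shelterin subunits recognise, was found on either strand in the promoters of 11.7% of the genes higher in KI, 14.3% of those lower and 12% of all.

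Chemokines and cytokines were higher for 10 of 35 tested members (28.6%) and lower for 1 at an unadjusted p under 0.05, with a median of 0.33. The count of higher members was 4 without WT array E or F, 6 without KI array A or B, and 13 without array C. On WT array E, 32 of the 65 measured members cleared background, so some of the 35 tested entered only through KI livers. By mouse, the median level minus the WT mean was 0.46, 0.34 and 0.17 in KI livers. It was 0.24, -0.05 and -0.17 in WT livers, so KI liver C lay below WT liver D. Cxcl13, which attracts B cells, had levels of -0.30, -0.80 and -0.65 in KI and -1.24, -2.08 and -1.70 in WT livers, a difference of 1.09 (SE 0.24; limma adjusted p = 0.358) without overlap. The death ligand Tnfsf10 (TRAIL) gave 1.04, 1.33 and 0.29 against -0.20, 0.03 and -0.37, and the eosinophil attractant Ccl24 gave 0.33, 0.14 and 0.48 against -0.18, -0.24 and -0.42. The monocyte attractants Ccl2 and Ccl7 differed by 0.64 and 1.10, Ccl2 with overlap between the genotypes. The 1 member lower in KI was Cxcl1, which attracts neutrophils, with 0.03, -0.22 and 0.39 in KI and 0.19, 1.47 and 1.01 in WT livers, a difference of -0.82. The part of the higher macrophage and neutrophil markers in the chemokine differences was not tested.

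The NF-kappaB list was mixed. Of 34 tested genes, 6 were higher and 2 lower at an unadjusted p under 0.05, with a median of 0.06, close to that of all genes. Without WT array F 0 were higher, without KI array A 1 and without KI array B 2. The feedback inhibitor Tnfaip3 (A20) differed by 0.46, its partner Tnip1 by 0.48 and Tnfaip2 by 0.53. With overlap between the genotypes, the subunit Relb differed by 0.50, the surface protein Cd83 by 0.87 and the adhesion molecule Vcam1 by 0.60. Nfkbiz, an atypical inhibitor that directs a subset of targets, was lower in all KI livers, with -2.05, -2.10 and -1.82 against -1.22, -1.46 and -0.81, and Ikbke, a kinase of the innate response, differed by -0.54. The inflammasome list held 2 genes higher and 2 lower among 21, and the latter were 0 without A, B or D. Casp1, the protease that matures interleukin-1 beta, had 0.93, 0.48 and 0.63 in KI and 0.24, 0.03 and -0.25 in WT livers, Casp4 differed by 0.55, and Nlrp6 and Il1r1 differed by -0.46 and -0.67. Of 33 apoptosis regulators 3 were higher, namely the necroptosis effector Mlkl (0.75), its kinase Ripk3 (0.48) and Casp2 (0.39).

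Hepatocyte identity genes overlapped between the genotypes. Alb had levels of 10.29, 9.98 and 9.92 in KI and 9.27, 10.43 and 9.52 in WT livers, and WT liver E had the highest value of all. The difference of 0.32 (SE 0.31; limma adjusted p = 0.65) was within the spread. Fabp1, which carries fatty acids in the cell, gave 9.36, 9.08 and 9.52 against 8.50, 9.43 and 8.85, Apoa1 differed by 0.06 and the regulator Hnf4a by 0.07, and both were slightly lower in KI with quantile normalization (-0.07 and -0.05). Of the 12 hepatocyte markers 0 were higher and 1 was lower at an unadjusted p under 0.05, and the median was 0.12 (-0.06 with quantile normalization). This count rested on WT array E, since without it 6 of the 12 were higher and the median was 0.30. Without WT array D the median was 0.0040. Lists of coagulation factors, periportal and pericentral genes and secreted plasma proteins had 0 to 2 members at an unadjusted p under 0.05 in either direction with all 6 arrays. Without WT array E, 15 of 30 plasma protein genes, 13 of 35 periportal genes and 5 of 27 coagulation genes were higher. Without array C 7 of 41 pericentral genes were lower, and without WT array F 4 periportal genes were. The 75th percentile signal before centring was 527.5, 635 and 587 on KI arrays A, B and C. It was 1136, 467.8 and 928.6 on WT arrays D, E and F. Summed plasma protein levels ran in the reverse order, from 14403 on the dimmest array E to 8423 on the brightest array D. The part of array brightness in these lists was not tested.

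Single secreted hepatocyte products were lower in KI livers, while the list of secreted plasma proteins had 20 of 30 differences above 0 and a median of 0.25 (-0.02 with quantile normalization). The acid glycoprotein Orm3 had 1.83, 2.04 and 2.03 in KI and 3.15, 3.02 and 3.12 in WT livers, a difference of -1.13 (SE 0.12; limma adjusted p = 0.358), with replicates close together. The pentraxin Crp gave 4.92, 5.50 and 4.52 against 6.24, 5.78 and 5.98, and the antiprotease Serpina3n 3.49, 4.21 and 3.95 against 4.43, 4.29 and 4.49. These 3 and Steap4 (-0.29), a metalloreductase, were the 4 of 27 acute-phase genes (14.8%) lower at an unadjusted p under 0.05, and 0 were higher. Of the 27 differences 13 were above 0. The list median was -0.03 and changed sign without KI array A (0.09) or WT array E (0.08). When each array was left out 2 or 3 members were lower, and without WT array E 4 were higher. Rnase4, a secreted ribonuclease, had 5.93, 6.18 and 6.13 against 6.92, 6.81 and 6.95, a difference of -0.82 (SE 0.12; limma adjusted p = 0.358). Serpina6, which carries corticosteroids in plasma, differed by -0.54, and by -0.20 with the mean of its probes.

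Complement genes differed in both directions. Chains of C8, a hepatocyte product that enters the membrane attack complex, were lower in KI livers. C8a had 2.61, 3.14 and 3.19 against 3.87, 3.86 and 4.18, and C8b had 3.56, 3.38 and 3.04 against 4.05, 4.04 and 3.96. C6, another component of that complex, was higher, with 0.68, 0.69 and 0.89 against 0.22, 0.27 and 0.18. The other members higher at an unadjusted p under 0.05 were the macrophage products C1qa and C1qb and the leukocyte product Cfp (0.48), which makes 4 of 31 higher (8 without WT array E) and 2 lower.

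**Figure D4:**
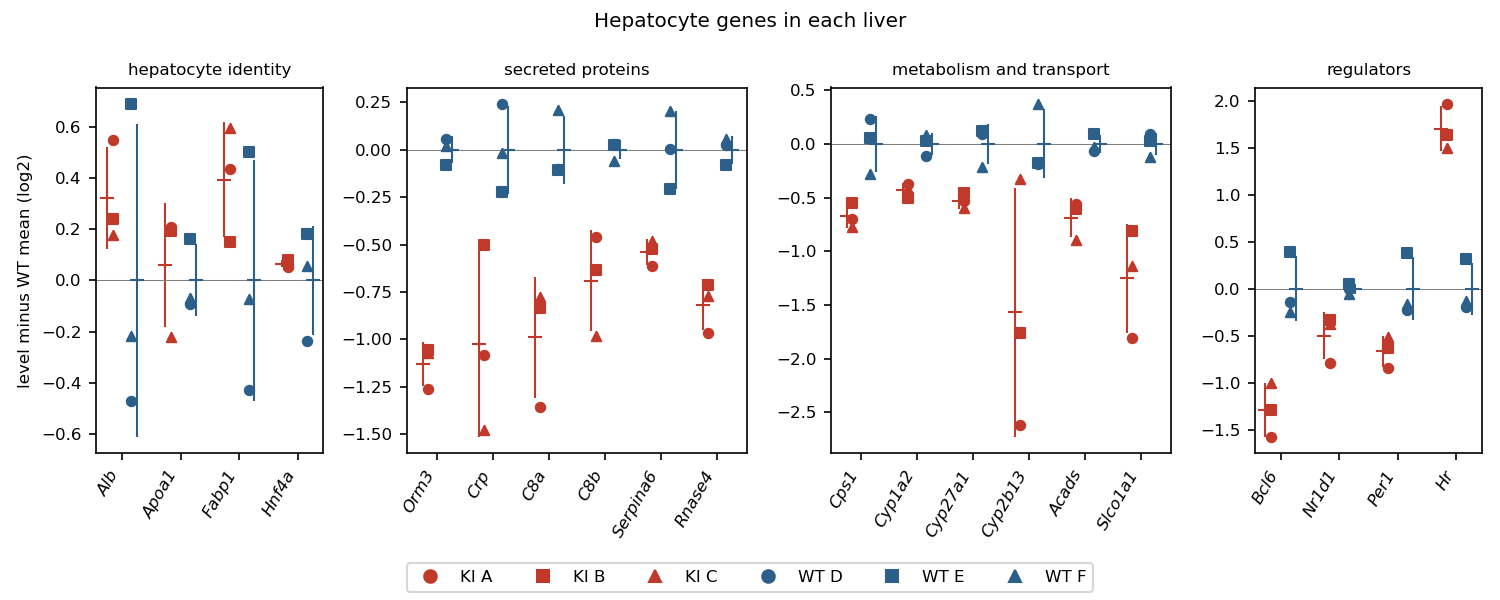
Level in each liver minus the mean of the 3 WT livers (log2) for hepatocyte identity genes, secreted proteins, genes of metabolism and transport, and regulators. Red symbols are KI and blue symbols WT mice, and the bars give the mean and SD of each genotype (n = 3). The vertical scales of the panels differ. Alb, Apoa1, Fabp1 and Hnf4a overlap between genotypes, Orm3, C8a, Rnase4, Acads and Bcl6 are lower and Hr is higher in all 3 KI livers.

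Enzymes and transporters of nitrogen, bile acid and lipid metabolism included single genes that were lower in KI livers. The medians of their lists ranged from -0.16 for bile acid transport and sensing to 0.35 for fatty acid and triglyceride synthesis. Cps1, which commits ammonia to the urea cycle, had 6.34, 6.49 and 6.27 in KI and 7.27, 7.09 and 6.75 in WT livers, a difference of -0.67 (SE 0.16; limma adjusted p = 0.364). The arginine transporter Slc7a2 and the glutamine transporter Slc38a3 differed by -0.72 and -0.31, which makes 3 of 16 urea cycle and ammonia genes (18.8%) lower and 0 higher, at a median of -0.06. Without KI array A or C, 1 was lower, and the median was 0.01 without WT array E and -0.19 without F. It was -0.19 in the 15-month mice and 0.09 in the 14-month pair C and F, a single mouse of each genotype. Tdo2, which opens the ring of tryptophan, gave 4.80, 4.99 and 4.99 against 5.38, 5.46 and 5.46, and was among 2 lower of 55 amino acid catabolism genes, which were 4 without C or F.

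Cyp27a1, which starts the acidic route of bile acid synthesis, had 3.04, 3.11 and 2.97 against 3.67, 3.69 and 3.36, and Akr1d1, the reductase of the same pathway, differed by -0.43. Bile acid transport and sensing held 3 of 22 genes lower (13.6%) and 0 higher, with a median of -0.16. They were the xenobiotic receptor Nr1i2 (PXR), at 2.49, 2.94 and 2.51 against 3.26, 3.01 and 3.07, the organic anion transporter Slco1a4, at 3.20, 3.86 and 3.46 against 4.52, 4.10 and 4.15, and Slco1a1, at -5.39, -4.39 and -4.72 against -3.50, -3.55 and -3.70. Slco1a1 was dim, detected on 1 KI array and all 3 WT arrays, and its difference of -1.25 became -0.31 with the normexp background correction. Among cytochrome P450 genes, the pericentral Cyp1a2 was lower in all KI livers, with 5.04, 4.90 and 4.99 against 5.29, 5.43 and 5.49. Of the 42 P450 genes 2 were higher and 2 lower, and 7 were lower without array C.

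Acads, the first enzyme of short-chain fatty acid oxidation, had 2.80, 2.76 and 2.47 in KI and 3.29, 3.46 and 3.33 in WT livers, a difference of -0.69 (SE 0.14; limma adjusted p = 0.358). Lpin2, a phosphatidate phosphatase of triglyceride synthesis, gave 3.00, 2.94 and 2.95 against 3.47, 3.72 and 3.34. The fatty acid translocase Cd36, by contrast, was higher, with 3.13, 3.52 and 3.76 against 0.75, 1.87 and 2.97, a difference of 1.61 (SE 0.53; limma adjusted p = 0.397). Fatty acid oxidation and PPAR alpha targets as a list had 1 higher and 3 lower of 53 genes and a median of 0.05. When each array was left out 1 or 2 were lower and 0 to 3 higher, and the median was 0.24 without KI array A and 0.20 without WT array F but below 0 without B, C, D or E.

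The lipogenic enzymes Fasn, Elovl6 and Acly, chosen after their values were seen, overlapped between the genotypes. Fasn, the fatty acid synthase, had 5.76, 4.14 and 4.51 in KI and 3.40, 5.81 and 3.70 in WT livers. Elovl6, which lengthens its product, had 8.16, 5.51 and 6.14 against 4.99, 7.39 and 4.93. Acly, which supplies acetyl-CoA, had 8.75, 7.28 and 7.48 against 6.70, 8.59 and 6.64. KI liver A and WT liver E were the highest for all 3 genes, and the limma adjusted p lay between 0.688 and 0.769. In the fatty acid and triglyceride synthesis list 32 of 40 differences were above 0, 2 members were higher and 1 lower at an unadjusted p under 0.05, and the median was 0.35. Without WT array E 10 were higher and the median was 0.49, and without WT array D 0 were higher and it was 0.16. In the glucose lists Hk2, a hexokinase that hepatocytes hold at low levels, differed by 0.94 and Aldoa by 0.39, Pfkfb3 by -0.50, and 0 of 14 gluconeogenesis genes had an unadjusted p under 0.05. Mvk, the mevalonate kinase of cholesterol synthesis, differed by 0.53.

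Sex-biased liver genes, which hepatocytes set by the pattern of growth hormone, differed in both directions. Bcl6, a repressor that is higher in male liver, had 1.39, 1.67 and 1.96 in KI and 2.82, 3.36 and 2.71 in WT livers, a difference of -1.29 (SE 0.23; limma adjusted p = 0.358) without overlap. Slco1a1 and C8b, also male-biased, were lower too, which makes 3 of 27 male-high genes lower (11.1%) and 1 higher, with a median of 0.09 (-0.03 without array C, and 5 lower without C or F). Of 27 female-high genes, 6 were higher (22.2%) and 1 lower, with a median of 0.25, and 3 to 5 were higher when each array was left out. The estrogen sulfotransferase Sult1e1 was dim on most arrays and rested largely on liver C, with -3.16, -2.40 and 0.70 against -4.21, -4.36 and -3.78, a difference of 2.50 that became 1.34 without C. Sult2a2 gave 7.77, 7.90 and 8.18 against 6.65, 7.44 and 7.49. Cyp2b13, female-biased like them, was lower, with 4.12, 4.98 and 6.41 against 6.55, 6.55 and 7.10, and by -2.19 rather than -1.57 without C. Probes of the Sult2a, Cyp2b, Orm and globin families may also bind close copies of these genes, which was not checked.

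Circadian clock genes were lower in KI livers without overlap for 7 of 23 tested members and higher for 0, and 3 (13%) were lower at an unadjusted p under 0.05 (2 to 5 when each array was left out). The median was -0.15. The repressor Per1 had 3.07, 3.28 and 3.40 in KI and 3.69, 4.30 and 3.76 in WT livers. Nr1d1 (REV-ERB alpha), which represses the activator arm of the clock, had 1.92, 2.38 and 2.34 against 2.71, 2.76 and 2.66, a difference of -0.50 (SE 0.16; limma adjusted p = 0.397). Its relative Nr1d2 differed by -0.37. Per2, Ciart and Usp2 differed by -0.56, -1.17 and -0.90 with overlap. The time of day at which each liver was taken is not given in the sources used here.

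Hr, a corepressor of nuclear receptors that responds to thyroid hormone, had -0.12, -0.44 and -0.58 in KI and -2.27, -1.77 and -2.21 in WT livers, a difference of 1.70 (SE 0.19; limma adjusted p = 0.358), or 3.26-fold. It was the 1 of 23 thyroid hormone genes that was higher at an unadjusted p under 0.05. Cyp26b1, which degrades retinoic acid, gave 2.48, 3.01 and 3.58 against 1.59, 1.39 and 1.23. In the retinoid list 5 of 33 genes (15.2%) were higher, among them Lrat, Aldh1a3 (0.69), an enzyme that makes retinoic acid, and Rarb (0.50), a receptor for it that differed by -0.17 with the mean of its probes. The dehydrogenases Rdh9 and Rdh10 were lower (-0.75 and -0.29). The list median of 0.27 was 0.11 with quantile normalization, and 3 members were higher without KI array A or B and 8 without C. The IGF-binding proteins moved apart. Igfbp3, made by non-parenchymal cells, had 1.40, 1.08 and 0.70 against 0.45, 0.16 and -0.03, and Igfbp2, made by hepatocytes, had 5.58, 5.36 and 5.10 against 6.16, 5.87 and 5.91.

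Fetal, stem cell and tumour-associated genes were higher for 11 of 38 tested members (28.9%) and lower for 1, with a median of 0.34. On WT array E, 34 of the 45 measured members cleared background, so some of the 38 entered only through KI livers. The cell cycle inhibitor Cdkn2a, which accumulates in senescent cells, had -1.40, -0.84 and -1.14 in KI and -1.64, -1.84 and -1.75 in WT livers. The galectin Lgals3 differed by 0.58, S100a6 by 0.54, Anxa2 by 0.51 and Cd24a by 0.60. Members such as Lgals3, Vim and S100a8 are also made by macrophages, fibroblasts or neutrophils, and markers of these cells were among the genes higher in KI. The part of these cells in the differences of this list was not tested. Golm1, a Golgi protein, was lower, with 0.43, 0.24 and -0.66 against 1.09, 0.95 and 0.64.

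Proliferation genes had a median of 0.31 over 38 members, with 2 higher at an unadjusted p under 0.05. On WT array E, 34 of the 46 measured members cleared background, so some of the 38 entered only through KI livers. Without array C 8 were higher and the median was 0.44, and without KI array B 0 were higher. Mki67 was high in KI liver A (1.57) and B (0.51) but not in C (-0.55), and WT livers had -0.43, -0.43 and -0.51. The list median was 0.50 in the 15-month mice and -0.22 in the 14-month pair C and F, a single mouse of each genotype. Of 30 p53 targets 0 were higher and 1 was lower, with a median of 0.04. Of 43 DNA damage response and repair genes 2 were higher and 1 lower, with a median of -0.0034.

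Large housekeeping lists shifted by small amounts. The medians were 0.20 for 75 ribosomal protein genes and 0.14 for 75 oxidative phosphorylation subunits, with 67 and 66 members above 0 but 1 and 0 higher at an unadjusted p under 0.05. With quantile normalization these medians were 0.07 and 0.03. Without WT array E 22 ribosomal and 17 oxidative phosphorylation genes were higher. Both lists are among the brightest on the array. The summed oxidative phosphorylation level was also highest on array E (10260) and lowest on array D (7985), the arrays of lowest and highest signal. By level, the median difference over all genes was 0.03, 0.02, 0.01, 0.04 and 0.10 from the dimmest to the brightest of 5 bands of equal size. Proteasome subunits had 0 of 31 members at an unadjusted p under 0.05, and 5 higher without WT array E. Heat shock proteins and co-chaperones had 0 higher and 3 lower of 30, and 0 to 3 in either direction when each array was left out.

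Some of the largest differences fell outside these lists. Gpc1, a heparan sulfate proteoglycan, had 2.04, 2.38 and 2.32 in KI and -0.75, 1.23 and 0.90 in WT livers. Tbc1d31, a centrosomal protein, had 3.05, 2.31 and 2.09 against 0.41, 1.47 and 0.92, a difference of 1.55 (SE 0.34; limma adjusted p = 0.358). The formyl peptide receptor Fpr1 of neutrophils and macrophages had 0.70, 0.35 and 0.49 against -0.34, -0.23 and -0.38. Among the genes lower in KI, the adhesion receptor Adgrf1 had -2.36, -3.08 and -2.86 against -0.05, -0.15 and -1.58, a difference of -2.17 (SE 0.43; limma adjusted p = 0.358). The protease inhibitor Serpine2 had -3.46, -3.40 and -2.60 against -1.40, -2.14 and -1.76, and the actin crosslinker Actn1 had -0.61, -0.45 and -0.56 against 0.72, 0.24 and 0.14. All 6 genes were separated between the genotypes.

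For 11 genes the signal cleared background in no mouse of 1 genotype and in all 3 mice of the other, which gives only a lower bound on the fold difference. The bound is the mean of the brighter genotype over the dimmer genotype with each array raised to its lowest level well above background. Pla2g4f, a phospholipase A2, was at least 7.6-fold higher in KI, with -2.39, -2.18 and -1.54 against -6.76, -4.18 and -4.99. Nup62cl was at least 3.7-fold lower in KI, with -6.79, -5.08 and -6.51 against -1.83, -3.86 and -2.78. For both genes the limma adjusted p was 0.358.

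Array C carried transcripts of skeletal muscle. Of 30 measured muscle genes, 27 had their highest liver level on C, 21 of them by more than 1 and 12 by more than 4 on the log2 scale above the next array. The summed level of the list was 56.9 on C and 7.96 to 12.2 on the other liver arrays. Tnni2, a troponin of fast fibres, had -1.45, -1.80 and 4.01 in KI and -1.41, -2.28 and -2.56 in WT livers, and its difference of 2.33 became 0.45 without C. The skeletal actin Acta1 had -4.13, -4.05 and 2.62 against -3.65, -4.14 and -3.18. Without C the medians of the macrophage, stellate, matrix, interferon and chemokine lists were 0.56, 0.44, 0.34, 0.34 and 0.40. Those of B cells (0.80 to 1.19), T and natural killer cells (0.19 to 0.35), skeletal muscle (0.61 to -0.15) and white and brown fat (0.18 to -0.01) moved further.

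**Figure D5:**
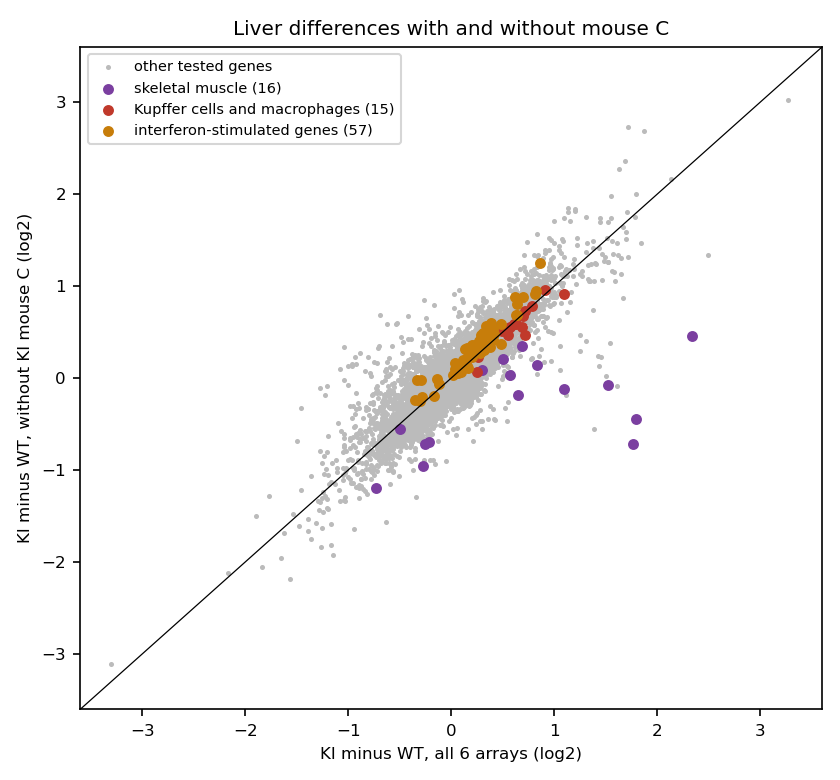
KI minus WT difference (log2) of every tested gene with all 6 liver arrays, on the horizontal axis, and without array C, on the vertical axis, with the line of equal values. Grey points are genes outside 3 coloured lists, the skeletal muscle, macrophage and interferon lists. Muscle genes fall below the line, Tnni2 from 2.33 to 0.45 and Acta1 from 1.80 to -0.44.

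The liver difference was set against the mean difference in the other 3 tissues in a joint fit. Of the 14092 genes, 0 passed the threshold with limma, 513 (3.64%) were higher and 244 (1.73%) lower in this contrast at an unadjusted p under 0.05. The contrast includes the brain array of mouse C, which carried liver transcripts, with an Alb level of 6.72 against -6.93 to -0.62 on the other brain arrays, and 0 genes passed without the arrays of mouse C as well. Values of brain are therefore not given. With quantile normalization or without mouse E, Pla2g4f passed, but its WT liver signals were not above background. The macrophage list had a median KI minus WT difference of 0.63 in liver, 0.23 in heart and 0.25 in muscle, the matrix list 0.38, 0.13 and 0.11, and the interferon list 0.25, 0.03 and 0.16. For single genes, Timp3 differed by 0.71 in liver, -0.01 in heart and 0.00 in muscle, and Bcl6 by -1.29, -0.20 and 0.20. The limma adjusted p of the liver excess over the other tissues was 0.766 for Timp3 and 0.713 for Bcl6, so neither gene was shown to differ in liver alone.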

How the data were processed

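Per the labels, total RNA of each tissue was labelled with Cy3 and hybridised to 1 Agilent array per sample. The authors extracted intensities with Agilent Feature Extraction 12.0.3.1. From the deposited files the intensity that the program gives as processed signal was taken, which is background-corrected but not normalized between arrays. The deposited score table (33912 features) held z-scores of the log signal within each array and served only as an alternative.

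Of 62976 spots per array, 59305 were not controls, and none was saturated on liver arrays. Outlier spots (121 to 347 per liver array) were left out, spots of a probe were averaged, and log2 values of 55681 probes were centred on the 75th percentile of each array (a signal of 467.8 to 1136). Probes were named through RefSeq accessions (GRCm38.p6), which gave 50.9% a symbol. The probe of highest mean over the 24 arrays stood for a gene. A 2-group model of the 6 liver arrays was fitted in R 4.3.3 with the lmFit and eBayes functions of limma 3.58.1. Its two-sided p-values were adjusted by Benjamini-Hochberg (threshold 0.05). The model was also run on simulated data, with added differences larger than most of those described here. That run does not show how well smaller differences are recovered. The number of arrays limits the precision, and the median SE was 0.169. Figures were drawn with matplotlib 3.10.9.

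The comparison, the gene lists and the members were chosen with earlier results of these data known. Genes were named by a rule: Terf2ip, the smallest p and largest differences in each direction, the largest bounds, up to 4 members per list in each direction, defining cell markers, the genes most moved by array C, and muscle genes. A further 62 genes were chosen after their values were seen. Label numbers name mice, so they pair tissues of a mouse but not KI with WT livers. Alternatives covered normalization, background correction, the deposited scores, filters, the probe for a gene, array weights, age, the 24-array fit, the mouse as a block and leaving out each array. Medians by age and counts without shared members were added after seeing the data.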

Additional observations from a re-analysis of the deposited data

How the results depend on the processing

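The number of genes that passed the threshold in liver was 0 under each alternative run on the 6 liver arrays and with each array left out. It was 3 in the fit of the 24 arrays and 3 when mice entered it as a replicate block, whose estimated correlation was -0.00234, and the block changed no other call. At an unadjusted p under 0.05, the deposited scores gave 676 higher genes, all probes gave 1120 lower ones, and leaving out each array gave 665 to 1466 higher and 330 to 638 lower. In the contrast with the other tissues 1 gene passed with quantile normalization, and 0 to 1 with each mouse left out, in both cases Pla2g4f, whose WT liver signals were not above background. Of 273 named genes, 269 kept their direction with quantile normalization, 268 with normexp and 269 with the mean of all probes. With array weights 271 kept it, and with the deposited scores all 273. Many of these genes were named for their differences in the same signals, so a kept direction is no separate evidence for them. The deposited scores only rescale the same log signal within each array. The exceptions with quantile normalization were Apoa1 (-0.071), Hnf4a (-0.049), Stab1 (-0.017) and Stab2 (-0.016). With normexp they were Hnf4a (-0.067), Stab2 (-0.029), Tnnc1 (0.081), Mirg (0.014) and Olfr485 (0.0039), and with array weights Stab1 (-0.011) and Stab2 (-0.047). With the mean of all probes they were Rarb (-0.17), Krt10 (-0.26), Terf2 (-0.023) and Xrcc2 (0.16). Directions that changed when an array was left out are given as ranges. They were -0.44 to 2.94 for Acta1, -0.72 to 3.16 for Tnnc2, -0.56 to 2.38 for Tcap, -0.086 to 2.59 for Fabp3, -0.074 to 2.47 for Cox6a2, -0.69 to 0.21 for Mylpf, -0.11 to 1.73 for Myl3, -0.72 to 0.08 for Tnnc1, -0.12 to 0.51 for Tnnt1, -0.18 to 1.10 for Pvalb and -0.96 to 0.16 for Atp2a1 in the muscle list, and -0.014 to 0.20 for Apoa1, -0.052 to 0.16 for Hnf4a, -0.16 to 0.18 for Krt7, -0.12 to 0.085 for Stab1, -0.066 to 0.11 for Stab2, -0.28 to 0.56 for Cd3d, -0.13 to 0.011 for Cd3e, -0.080 to 0.58 for Hbb-b1, -0.30 to 0.003 for Terf1 and -0.11 to 0.80 for Pot1a among other genes. The causes of these changes were not tested. Mirg and Olfr485 were not well above background in KI livers. With 3 mice per genotype the smallest adjusted p was 0.358, and the nominal counts moved with single mice, so differences of single genes are descriptive.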
